A study of Arabidopsis thaliana with 33 samples.

Results

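The 625 nuclear transfer RNA (tRNA) genes of Arabidopsis thaliana, out of 37887 nuclear genes in the RefSeq table of assembly TAIR10.1, were described through the open chromatin peaks listed on and around them. They were chosen by their biotype in that table. A gene was counted for a peak list when a peak summit, the base of highest signal, lay within the gene or 500 bp either side of it. Each gene is 69 to 90 bp long. The amino acid was given for all but 2 of them, and all 20 amino acids were represented.

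Peaks came from 10 day old seedlings of the accession Columbia-0 that had been kept at 38 °C for 6 h (heat), at 4 °C for 24 h (cold), in 250 mM sodium chloride for 6 h (salt) or drying in air for 1 h (drought), and from unstressed control seedlings. DNase-seq reads DNA that the nuclease DNase I cuts free from accessible chromatin, and FAIRE-seq reads DNA that stays free of protein after formaldehyde fixation. Each group had 3 libraries, the cold groups 2, and each group is represented by 1 pooled peak list, so there are 10 lists and no replicate error. Differences below compare lists, no test could be made, and 95% Wilson intervals cover counting error only. Read depth is unknown. The DNase-seq lists held 57736 peaks for heat, 64324 for cold, 55784 for salt, 45737 for drought and 70807 for control, and the FAIRE-seq lists held 85366, 63060, 90465, 92034 and 72789 in the same order. Whole seedlings were used, so cell types cannot be told apart.

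tRNA genes are transcribed by RNA polymerase III from promoter elements that lie inside the gene itself. The assembly factor TFIIIC binds these internal A and B boxes and places TFIIIB, with the TATA-binding protein, just upstream of the start. The transcripts are trimmed at the 5′ end by RNase P and at the 3′ end by tRNase Z before they carry amino acids to the ribosome. Many tRNA genes are near-identical copies of each other. The sources used here do not give how reads of 50 bases that match several copies were handled, and its part in the results was not tested.

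The 625 genes fall into 3 sets. Chromosome 1 holds 2 tandem arrays with 107 tRNA genes in all, 23 genes lie in the stretch of chromosome 2 where a copy of mitochondrial DNA is found, and 495 genes lie elsewhere. Of these 495, 461 are alone in their window. The whole nuclear genome, tRNA genes included, was represented by consecutive tiles of the same length as the gene (73 bp) or as the gene with its window (1073 bp).

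In control seedlings, summits lay on tRNA genes more often than on tiles of the same length. A control DNase-seq summit lay on 203 of the 625 genes, where 4.34% of 73 bp tiles held one. Among the 495 genes outside the arrays and the mitochondrial copy, the count was 187, which is 37.8% (33.6 to 42.1). A control FAIRE-seq summit lay on 144 of the 625 genes, against 4.46% of tiles, and all 144 were among the 495 (29.1%, 25.3 to 33.2). The middle 73 bp of protein-coding genes held a summit in 3.93 to 8.48% of cases over the 10 lists, that of snoRNA genes in 0.697 to 6.27% and that of miRNA genes in 2.45 to 6.44%. The density of control DNase-seq summits on the gene was 8.51 times the genome mean of that list, and 51 to 100 bp outside the gene it was 0.306 times the mean. The control FAIRE-seq density was 6.38 times the mean on the gene and had no such dip beside it, with 1.29 times the mean at 51 to 100 bp. In control FAIRE-seq the nearest summit was 1 to 150 bp away at 148 of the 495 genes (29.9%), about as many as had one on the gene, whereas in control DNase-seq it was at that distance at 63 (12.7%). Both assays had a summit on the gene in 72 of the 495 genes in control. That is 38.5% of the genes with a DNase-seq one and 50.0% of those with a FAIRE-seq one. For 73 bp tiles these shares were 21.2% and 20.6%.

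DNase-seq summits lay on tRNA genes far less often in the heat, cold and salt lists than in the drought and control lists. The counts of the 625 genes were 38 for heat, 77 for cold, 80 for salt, 204 for drought and 203 for control, and the tiles held a summit in 3.54%, 3.94%, 3.42%, 2.80% and 4.34% of cases in that order. Relative to its tiles the share on tRNA genes was 1.72 times for heat, 3.13 for cold, 3.75 for salt, 11.6 for drought and 7.49 for control. Of the 495 genes, 7.68% (5.64 to 10.4) held a summit in the heat list, 15.2% (12.3 to 18.6) in the cold list, 14.9% (12.1 to 18.4) in the salt list and 40.4% (36.2 to 44.8) in the drought list, against 37.8% in the control list. The intervals of heat, cold and salt do not overlap that of control, and the interval of drought does. This is not a test, since the intervals cover counting error only and the same genes stand in every list. The order changed with list length. With every DNase-seq list limited to its 45737 strongest peaks, 35 genes held a summit for heat, 57 for cold, 64 for salt, 204 for drought and 113 for control, so that drought then stood above control, and many control summits on tRNA genes were among the weaker peaks of that list. Heat, cold and salt then had 7.07% (5.13 to 9.67), 11.5% (8.99 to 14.6) and 12.3% (9.71 to 15.5) of the 495 genes, against 22.6% (19.2 to 26.5) in control. A margin of 50 bp around the gene narrowed the gap to control in relative terms, most for heat, with 102 of the 625 genes for heat, 127 for cold, 105 for salt, 278 for drought and 248 for control.

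FAIRE-seq gave another order. A FAIRE-seq summit lay on 143 of the 625 genes for heat, 195 for cold, 210 for salt, 154 for drought and 144 for control. Tiles held one in 5.23%, 3.86%, 5.54%, 5.64% and 4.46% of cases in that order, so the share on tRNA genes was 4.37 times that of tiles for heat, 8.08 for cold, 6.06 for salt, 4.37 for drought and 5.17 for control. Of the 495 genes the shares were 28.9% (25.1 to 33.0) for heat, 39.0% (34.8 to 43.4) for cold, 41.4% (37.2 to 45.8) for salt, 30.3% (26.4 to 34.5) for drought and 29.1% for control. The intervals of cold and salt, which cover counting error only, lay above that of control, and their DNase-seq counts lay below the control count. With equal list lengths the FAIRE-seq counts were 131 for heat, 195 for cold, 179 for salt, 118 for drought and 144 for control, and the salt interval (36.2%, 32.1 to 40.5 of the 495 genes) then overlapped that of control. Most genes that newly had a summit on the gene already had one close by in control: the nearest control summit was 1 to 150 bp away at 58 of 84 such genes for cold and 56 of 88 for salt. When any shared base of a peak was counted, the FAIRE-seq lists differed less, with 322 of the 495 genes touched for heat, 319 (64.4%, 60.1 to 68.5) for cold, 329 (66.5%, 62.2 to 70.5) for salt, 272 for drought and 307 (62.0%, 57.7 to 66.2) for control.

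**Figure D1:**
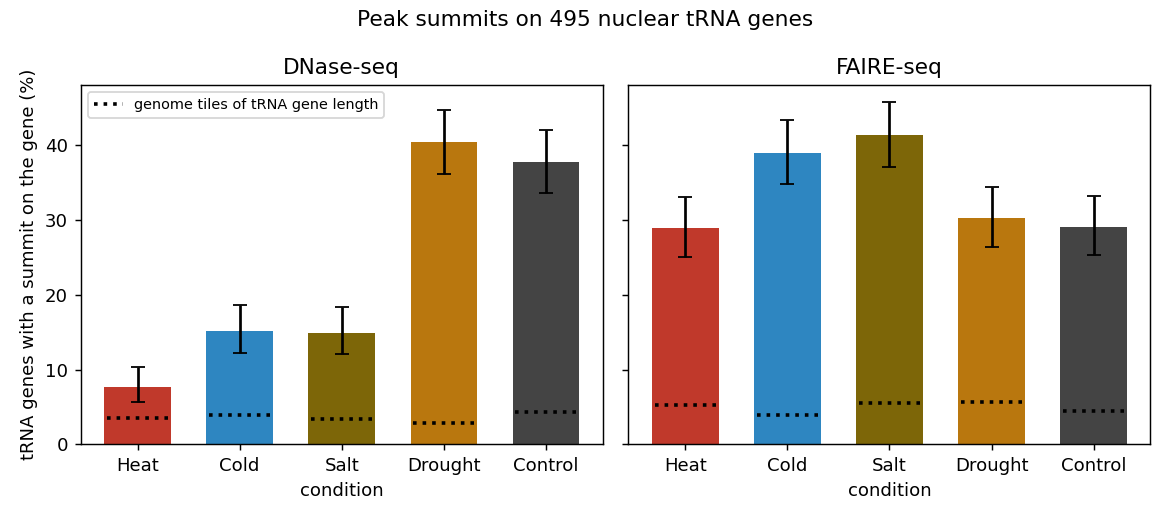
Bars give the percentage of the 495 tRNA genes outside the arrays and the mitochondrial copy with a peak summit on the gene, per condition and assay, with 95% Wilson intervals, and dotted lines give the percentage of 73 bp genome tiles with a summit. In DNase-seq the heat bar is lowest at 7.68% and the drought bar reaches 40.4%, beside 37.8% in control. In FAIRE-seq the salt bar is highest at 41.4%.

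In the heat DNase-seq list the summits lay beside the tRNA genes more than on them. They were most frequent 201 to 250 bp outside it, at 3.42 times the genome mean, against 1.46 times in the control list. On the gene itself the density was 2.12 times the mean for heat and 8.51 times for control. Peaks still reached the gene: 222 of the 495 genes (44.8%, 40.5 to 49.3) shared at least 1 base with a heat DNase-seq peak, against 258 (52.1%, 47.7 to 56.5) with a control peak. The tiles touched were 18.4% for heat and 22.3% for control, so that tRNA genes were touched 2.43 times as often as tiles for heat and 2.33 times as often for control. DNase-seq summits 100 to 350 bp away on both sides of the same gene were found at 35 of the 495 genes for heat, 16 for cold, 7 for salt, 4 for drought and 14 for control. In FAIRE-seq there were 11 such genes for heat, 6 for cold, 9 for salt, 19 for drought and 7 for control. Tiles and other genes were not counted this way, so no background share stands beside these counts.

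The salt DNase-seq list showed a change of another kind. Its summit density was 4.27 times the mean on the gene and below the mean from 1 to 300 bp outside it. It was 0.992 times at 1 to 50 bp, 0.388 at 51 to 150 bp and 0.762 at 151 to 300 bp. The control densities there were 1.43, 0.357 and 1.16 times, so the dip at 51 to 150 bp was in control too. Only 115 of the 495 genes (23.2%, 19.7 to 27.2) were touched by a salt peak, against 258 touched by a control peak, and tRNA genes were touched 1.24 times as often as tiles for salt and 2.33 times as often for control. The drought DNase-seq density was 14.1 times the mean on the gene, with 308 genes touched (62.2%, 57.9 to 66.4), 4.65 times as often as tiles. In FAIRE-seq the density was highest on the gene in every list, at 5.40 times the mean for heat, 9.86 for cold, 7.30 for salt, 5.25 for drought and 6.38 for control.

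**Figure D2:**
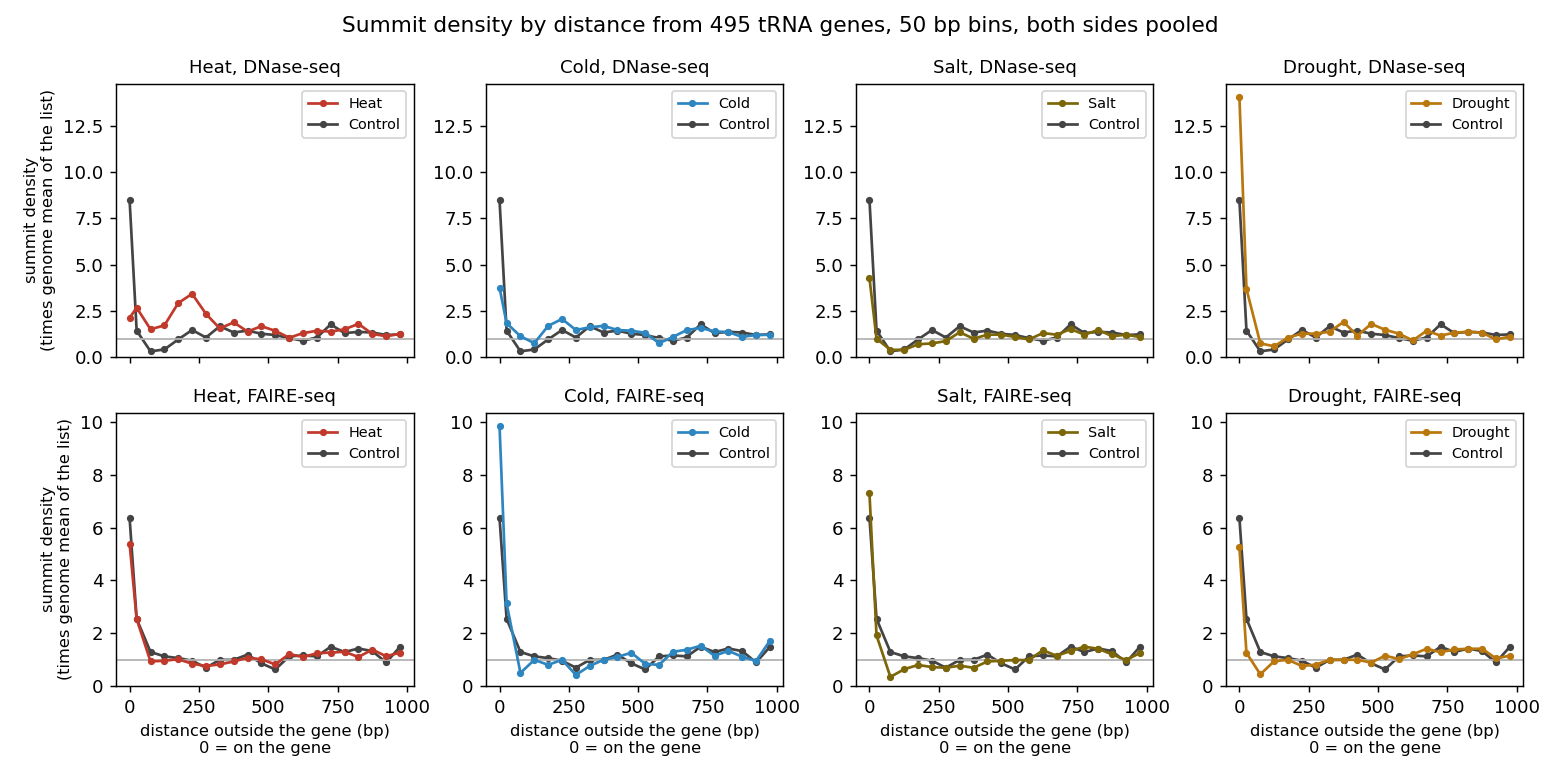
Each panel plots summit density, as a multiple of the genome mean of the same list, against distance outside the 495 tRNA genes in bins of 50 bp with both sides pooled, and the point at 0 is the gene itself. The heat DNase-seq curve has its highest point at 201 to 250 bp (3.42 times the mean), and the drought DNase-seq curve has its highest point on the gene (14.1 times the mean).

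The fate of the control sites was followed gene by gene. Of the 187 genes with a control DNase-seq summit on the gene, 30 also had one on the gene in the heat list, 70 had their nearest heat summit 1 to 150 bp away, 61 had it 151 to 500 bp away and 26 had none within 500 bp. For cold the same counts were 61, 47, 41 and 38. For salt they were 68, 12, 26 and 81. For drought they were 144, 26, 8 and 9. Most of these genes still had a heat summit nearby, whereas 81 of 187 had no salt summit in the window. Measured from the control summit, 15.0% of the 187 had no heat summit within 500 bp, against 34.3% of all control DNase-seq peaks. The share without a salt summit was 44.9%, against 18.2% of all control peaks. Cold gave 20.9% against 18.7%, and drought gave 5.35% against 34.3%.

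Control summits that stayed in place were also set beside all control peaks. A stress summit lay within 36 bp of the control summit at 17.1% (12.4 to 23.2) of the 187 on-gene DNase-seq summits for heat, 34.2% (27.8 to 41.3) for cold, 39.6% (32.8 to 46.7) for salt and, under drought, 84.0% (78.0 to 88.5). Over all control DNase-seq peaks the shares were 33.8%, 51.1%, 57.6% and 47.8%. On-gene summits were kept less often than control peaks at large under heat, cold and salt, and more often under drought, also with equal list lengths, where they were 18.8%, 34.8%, 50.0% and 90.2% against 38.6%, 54.1%, 67.2% and 67.2%. In FAIRE-seq 76.4% of the 144 on-gene summits were kept for heat, 80.6% for cold, 83.3% for salt and, under drought, 61.8%, against 58.8%, 42.1%, 51.3% and 53.5% of all control peaks. With equal FAIRE-seq list lengths they were 73.6%, 80.6%, 79.9% and 54.2%, against 57.1%, 45.6%, 49.9% and 51.0%. The drought interval (46.0 to 62.1) then included the share of all control peaks.

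**Figure D3:**
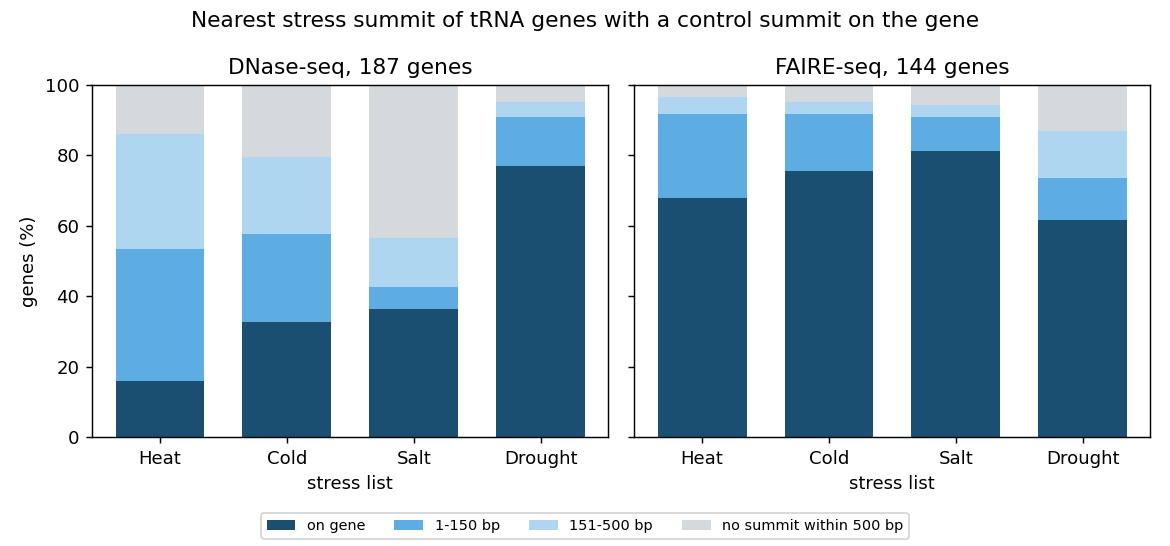
Stacked bars give, for the genes with a control summit on the gene (187 in DNase-seq, 144 in FAIRE-seq), the percentage whose nearest summit in each stress list lay on the gene, 1 to 150 bp away, 151 to 500 bp away or nowhere within 500 bp. The DNase-seq heat bar has 30 genes in the darkest segment and the drought bar 144.

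Single genes were read at the level of the peaks. The lysine gene AT4G22754 had a control DNase-seq peak on the gene at chromosome 4, 11954616 to 11954830 (TAIR10), with a fold enrichment over local background, as the authors' peak caller gave it, of 4.54. None of the 4 stress DNase-seq lists had a summit on this gene. In FAIRE-seq a summit lay on it for cold (2.89-fold), salt (3.02-fold), drought (2.48-fold) and control (2.20-fold), but not for heat. The aspartate gene AT2G39860 had a control DNase-seq peak of 4.28-fold on chromosome 2, 16639665 to 16639875, and no DNase-seq summit on the gene under heat, cold or salt. In FAIRE-seq a summit lay on it in every list, with 2.41-fold for heat, 3.59 for cold, 2.99 for salt, 2.42 for drought and 2.92 for control. Both genes were named by rank, as being among the 3 strongest on-gene control DNase-seq peaks without a match. That rule was chosen after the values were seen.

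At 14 genes a control DNase-seq summit on the gene stood against heat summits 100 to 350 bp away on both sides and none on the gene. This pattern was not counted over tiles. At the serine gene AT1G65830 the control peak spanned 24486899 to 24487074 of chromosome 1 (3.13-fold), and the heat summits lay 347 bp to one side and 154 bp to the other, with 3.14-fold and 3.22-fold enrichment. At the lysine gene AT1G20250 they lay 128 and 254 bp away (2.92-fold and 3.48-fold), around a control peak of 2.97-fold. At the tryptophan gene AT1G61880 they lay 306 and 168 bp away (2.44-fold and 2.83-fold), around a control peak of 2.74-fold. The gene table gives no strand, so neither side can be called upstream.

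Drought DNase-seq summits appeared on 59 genes without a control one, where 0.996% of tiles gained one, and were missing from 58, where 2.53% of tiles lost one. The glutamate gene AT1G75570 had the strongest such peak, of 8.10-fold at chromosome 1, 28373359 to 28373644, followed by the alanine gene AT5G43455 with 7.44-fold and the phenylalanine gene AT4G27395 with 6.92-fold. Fold enrichment was high throughout the drought list, with a median of 4.42 over all its peaks and 2.88 in the control list, so folds are comparable only within a list. AT1G75570 also had a cold DNase-seq peak on the gene (3.03-fold) that control lacked, and AT4G27395 a salt one (2.92-fold). In FAIRE-seq a control summit lay on the gene at AT1G75570 (3.21-fold), AT5G43455 (1.86-fold) and AT4G27395 (3.02-fold). For heat 8 genes gained and 173 lost an on-gene DNase-seq summit (2.22% and 3.02% of tiles), for cold 15 and 141 (1.99% and 2.38%), and for salt 6 and 129 (1.22% and 2.14%).

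In FAIRE-seq 45 genes gained and 46 lost an on-gene summit for heat (2.92% and 2.15% of tiles), 86 and 35 for cold (2.19% and 2.79%), 93 and 27 for salt (3.52% and 2.44%), and 65 and 55 for drought (3.52% and 2.34%). The isoleucine gene AT3G02315 gained one in all 4 stresses, with 4.33-fold for heat, 5.0 for cold, 4.84 for salt and, under drought, 3.56, and all 4 peaks began and ended within chromosome 3, 469550 to 469812. Another isoleucine gene, AT1G06480, gained one for heat (4.36-fold), salt (4.58-fold) and drought (3.97-fold). In DNase-seq a control summit already lay on the gene at AT3G02315 (3.17-fold) and at AT1G06480 (2.90-fold). The isoleucine gene AT3G25715, in contrast, had a control peak of 3.50-fold on the gene that cold, salt and drought lacked.

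A summit lay on the gene in all 10 lists at 5 of the 625 genes. They are AT1G20210 (aspartate), AT5G02615 (arginine), AT5G18015 (tryptophan), AT5G52815 (lysine) and AT5G54365 (phenylalanine), named after their values were seen. The tryptophan gene AT5G18015 had DNase-seq folds of 2.34 for heat, 2.24 for cold, 3.75 for salt, 6.03 for drought and 4.15 for control. Its FAIRE-seq folds were 3.14 for heat, 3.89 for cold, 3.54 for salt, 3.22 for drought and 3.15 for control. All 10 peaks lay between 5965738 and 5966092 of chromosome 5. The lysine gene AT5G52815 had DNase-seq folds of 2.03 for heat, 2.20 for cold, 2.88 for salt, 10.9 for drought and 3.74 for control. At the other end, 253 of the 625 genes had no on-gene summit in any list, 145 of them among the 495.

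The strength and width of peaks on tRNA genes differed between the assays. Their median percentile of fold enrichment within the list was 60.2 for heat, 46.2 for cold, 38.5 for salt, 66.8 for drought and 40.0 for control in DNase-seq, and 73.0, 77.8, 66.5, 58.8 and 73.0 in FAIRE-seq in that order. At most 2 on-gene peaks of a list were among its strongest 1%. The median width was 216.5 bp for heat, 161.0 for cold, 147.5 for salt, 205.5 for drought and 159.0 for control in DNase-seq, where the medians of all peaks were 238.0, 208.0, 254.0 and 220.0 bp against 231.0 bp. In FAIRE-seq the on-gene median widths were 182.0, 161.0, 168.5, 162.0 and 202.5 bp in that order, and those of all peaks 205.0, 180.0, 215.0, 214.0 and 192.0 bp. On-gene peaks were thus narrower at the median than all peaks of their list in every list except control FAIRE-seq, where they were wider.

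Tryptophan genes held on-gene summits most often and cysteine genes were near the bottom in both assays. Of the 13 tryptophan genes outside the arrays and the mitochondrial copy, 5 had an on-gene DNase-seq summit for heat, 5 for cold, 8 for salt, 10 for drought and 10 for control. In FAIRE-seq 9 did for heat, 8 for cold, 12 for salt, 8 for drought and 8 for control. The mean share over the 5 lists of an assay was 58.5% in DNase-seq and 69.2% in FAIRE-seq for tryptophan, the highest of the 20 amino acids in both. Of these genes, 12 of 13 had an on-gene summit in at least 1 list, and the tryptophan gene AT4G39615 had one in 9 lists.

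Methionine (43.8% and 44.8%), isoleucine (40.9% and 44.5%), aspartate (40.8% and 40.8%), lysine (40.7% and 43.3%) and phenylalanine (40.0% and 50.0%) followed, with the DNase-seq mean first. Cysteine was at the other end, with 1.43% and 17.1% over its 14 genes, and 0 of 14 in the heat, cold, salt and drought DNase-seq lists, against 1 in control. Threonine had 10.0% and 16.7%, and proline 16.4% and 14.9%. Valine (6.67% and 30.0%), asparagine (6.67% and 34.7%), tyrosine (8.75% and 38.8%) and glutamine (10.0% and 37.5%) were low in DNase-seq and in the middle in FAIRE-seq.

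The direction against control was also counted by amino acid. With the full lists the on-gene DNase-seq count was lower than in control for 19 of 20 amino acids under heat and under cold, asparagine being the exception with 2 of 15 genes in each against 0 in control. Under salt it was lower for 19 and equal for asparagine. Under drought it was higher for 9, lower for 7 and equal for isoleucine, lysine, methionine and tryptophan. In FAIRE-seq it was higher than in control for 16 amino acids under cold and 15 under salt, and lower for phenylalanine under cold and for glutamate and tyrosine under salt. Glutamate was lower in both assays in heat, with 0 of 23 genes in DNase-seq and 1 of 23 in FAIRE-seq, against 11 and 8 in control. Proline also had 0 of 39 genes in heat DNase-seq, against 16 in control, but 4 in heat FAIRE-seq, against 2. Tyrosine and cysteine had 0 in heat DNase-seq as well, against 2 and 1 in control. These directions depended on list length: with equal lengths the DNase-seq count was lower than in control for 14 amino acids and higher for 4 under heat, lower for 13 and higher for 5 under cold, lower for 15 and higher for 1 under salt, and higher for 16 and lower for 1 under drought. In FAIRE-seq it was then higher for 16 under cold and 14 under salt. The counts are small and were not tested.

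**Figure D4:**
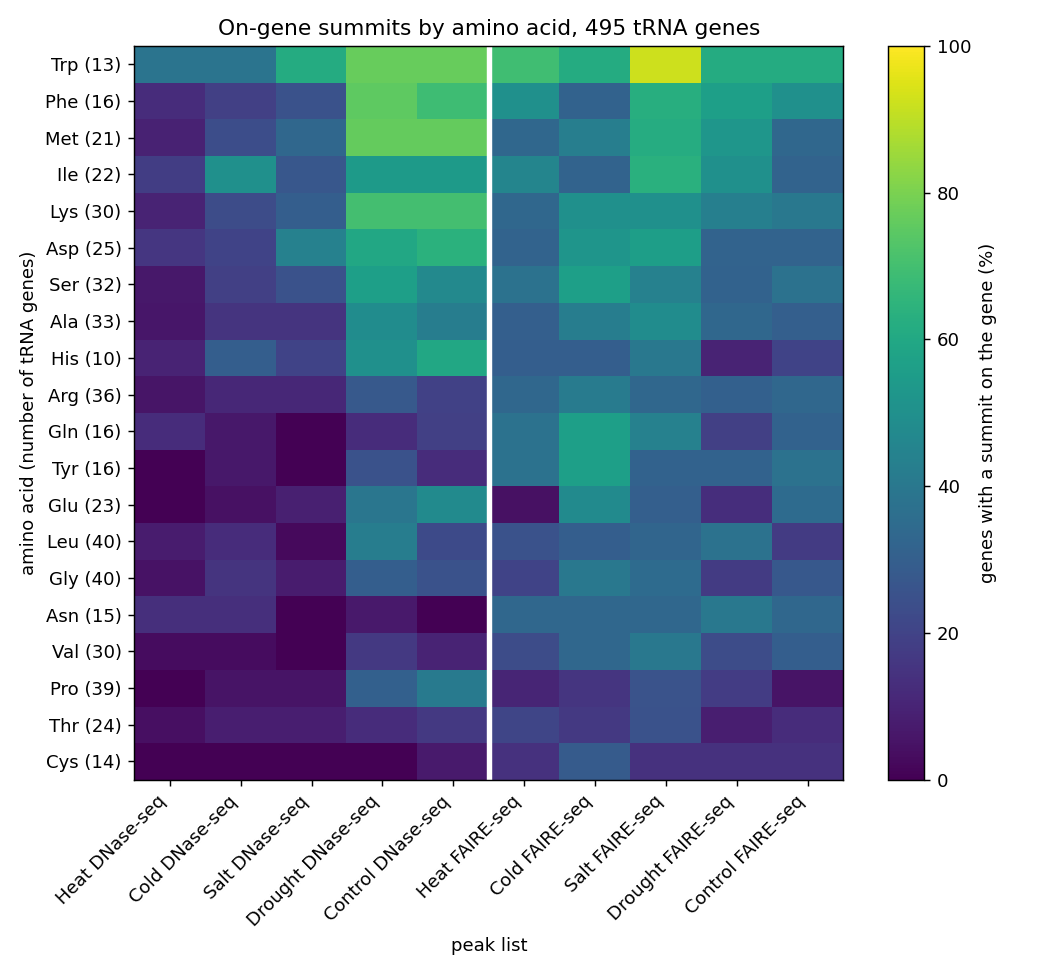
Colour gives the percentage of the tRNA genes of each amino acid (number of genes in brackets) with a summit on the gene in each of the 10 peak lists, over the 495 genes outside the arrays and the mitochondrial copy. Tryptophan is the top row and cysteine the bottom row. The columns for heat, cold and salt DNase-seq range from 0 to 61.5%.

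Summits were nearly missing from the larger of the chromosome 1 arrays. It holds 81 genes, 54 for tyrosine and 27 for serine, from AT1G56730 to AT1G57530 over 40.7 kb, with a median gap of 373 bp. In 9 of the 10 lists 0 of its 81 genes had a summit in the window. The exception was the drought FAIRE-seq list, with a peak of 2.05-fold at 21268180 to 21268342 of chromosome 1, beside the first gene, AT1G56730. A count of 0 of 81 would allow a share of up to 3.70% for independent genes. Windows of neighbouring genes overlap here, so the genes are not independent. With windows of 1000 bp 0 to 3 genes were counted in any list. The 16 tyrosine genes elsewhere had an on-gene FAIRE-seq summit in 38.8% of cases on average. The sources used here do not say whether reads from these repeated units were placed or discarded, so closed chromatin and missing reads cannot be told apart.

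The smaller array holds 26 proline genes, from AT1G28720 to AT1G28990 over 20.3 kb, with a median gap of 389 bp. In DNase-seq 0 of them had a summit in the window for heat, 3 for cold, 12 for salt, 4 for drought and 23 for control. In FAIRE-seq the counts were 0 for heat, 6 for cold, 13 for salt, 14 for drought and 3 for control. Neighbouring genes share summits through their windows, and on the gene itself the DNase-seq counts were 0, 0, 5 and 2, against 14, and the FAIRE-seq counts 0, 1, 5 and 4, against 0. The control DNase-seq summits were weak: with equal list lengths the window counts were 0 for heat, 1 for cold, 7 for salt, 4 for drought and 1 for control, which ends the excess of control. The FAIRE-seq window counts were then 0 for heat, 6 for cold, 1 for salt, 3 for drought and 1 for control, so that the salt and drought counts also rested mostly on weaker peaks.

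**Figure D5:**
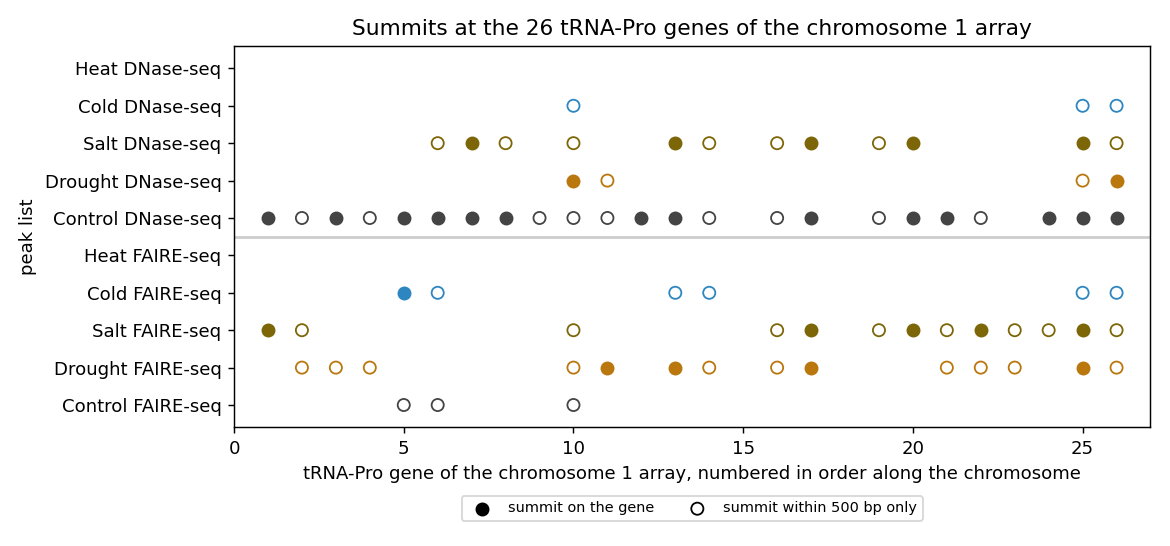
Filled circles mark proline genes of the chromosome 1 array with a summit on the gene and open circles those with a summit within 500 bp only, for each of the 26 genes in order along the chromosome (horizontal) and each peak list (vertical). Both heat rows are empty, and the control DNase-seq row has circles at 23 genes.

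A shorter run of 9 proline genes on chromosome 2, AT2G33890 to AT2G33970, had a summit in the window at 4 genes for heat, 4 for cold, 1 for salt, 6 for drought and 9 for control in DNase-seq. On the gene the counts were 0, 2, 1 and 4, against 8. In FAIRE-seq the window counts were 6, 5, 8 and 7, against 5. The 23 genes in the mitochondrial copy on chromosome 2 had a window summit in DNase-seq at 2 genes for heat, 13 for cold, 17 for salt, 19 for drought and 16 for control, and in FAIRE-seq at 7, 11, 1 and 2, against 1. All summits in that stretch numbered 56 for heat, 193 for cold, 252 for salt, 296 for drought and 303 for control in DNase-seq, lowest for heat like the gene counts, and the part of mitochondrial reads was not tested.

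With the full window of 500 bp either side the stress lists differed less. Of the 625 genes, 390 had a DNase-seq summit for heat (62.4%, 58.5 to 66.1), 371 for cold (59.4%, 55.5 to 63.1), 269 for salt (43.0%, 39.2 to 47.0) and 394 for drought (63.0%, 59.2 to 66.7), against 425 for control (68.0%, 64.2 to 71.5). Tiles of 1073 bp held one in 41.5%, 46.2%, 42.4%, 35.0% and 50.9% of cases in that order. Over all 625 genes, the arrays included, the salt share was thus within counting error of its tiles. Of the 495 genes outside the arrays and the mitochondrial copy, 240 (48.5%) had a salt summit. Their shares were 78.4% for heat, 71.7% for cold, 74.9% for drought and 78.0% for control. With equal list lengths the counts of the 625 genes were 370, 305, 215 and 394, against 292, and only salt then stayed below control. In FAIRE-seq the counts were 402 for heat, 396 for cold, 407 for salt, 383 for drought and 393 for control, and tiles held one in 57.6%, 44.7%, 59.8%, 60.3% and 51.0%. A window summit was present in all 10 lists at 171 genes and in none at 112, of which 28 were among the 495.

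By this window rule 50 genes gained and 85 lost a DNase-seq summit for heat (8.38% and 17.8% of tiles), 34 and 88 for cold (5.64% and 10.4%), 8 and 164 for salt (1.92% and 10.5%), and 31 and 62 for drought (1.86% and 17.8%). Salt loss was 164 of 625 genes, well above its tiles. The balance of the others depended on list length: with equal lengths 114 genes gained and 36 lost one for heat, 65 and 52 for cold, 19 and 96 for salt, and 117 and 15 for drought. In FAIRE-seq 30 gained and 21 lost one for heat (10.7% and 4.05%), 40 and 37 for cold (5.66% and 11.9%), 46 and 32 for salt (15.0% and 6.20%), and 36 and 46 for drought (14.7% and 5.35%). With equal FAIRE-seq lengths drought had 17 gained and 77 lost, and salt 21 gained.

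Some of these calls came from the edge of the window. The asparagine gene AT2G18310 and the isoleucine gene AT1G31110 gained a DNase-seq summit in all 4 stresses, but the control list had a summit 501 bp from AT2G18310 and 557 bp from AT1G31110, just outside. Of the 8 genes gained under salt, 7 had a control summit 501 to 600 bp away. Among the 164 lost under salt, 17 had a salt summit at that distance, and the median distance to the nearest salt summit was 1068 bp.

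Few genes changed in both assays. A summit was lost from the window in both by 8 genes for heat, 7 for cold, 9 for salt and, under drought, 8, and gained in both by 1, 4, 1 and 0, where 0.840%, 1.38%, 0.527% and 0.522% of tiles lost and 0.855%, 0.410%, 0.364% and 0.196% gained one. The glutamate gene AT5G45715 was lost in both assays under heat, cold and salt. Its control peaks lay on the gene at chromosome 5, with 2.46-fold enrichment at 18542904 to 18543045 in DNase-seq and 2.12-fold at 18542979 to 18543079 in FAIRE-seq. The nearest stress summits in those 3 stresses were 513 to 589 bp away. The lysine gene AT3G53775, lost in both under cold, had control peaks on the gene of 2.60-fold in DNase-seq and 2.29-fold in FAIRE-seq.

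The strongest window peaks mostly belonged beside the gene, not on it. The 10 genes with the highest mean percentile among those present in all 10 lists included AT4G11985 (valine), where the DNase-seq summits lay 286 bp away for heat, 277 for cold, 267 for salt, 261 for drought and 262 for control. At AT2G30180 (glycine) they lay 222, 195, 194 and 203 bp away, against 216 bp. AT5G46595 (cysteine) had a DNase-seq peak 385 to 419 bp away in all 5 lists, of 4.97-fold for heat, 6.22 for cold, 4.84 for salt, 17.0 for drought and 5.70 for control, and no FAIRE-seq summit in any list. AT5G10235 (arginine) was its counterpart, with a FAIRE-seq summit on the gene in all 5 lists (2.81-fold for heat, 3.18 for cold, 2.86 for salt, 2.44 for drought and 2.56 for control) and no DNase-seq summit in the window.

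In DNase-seq the heat share lay below the control share in each genomic setting, and differences between settings were not tested. Inside protein-coding genes 3.92% of 51 tRNA genes had an on-gene DNase-seq summit for heat, against 45.1% for control. Within 500 bp of one the shares of 379 genes were 8.44% for heat and 35.9% for control, and farther away those of 65 genes were 6.15% for heat and 43.1% for control. By chromosome the heat DNase-seq share was 5.56 to 9.09% and the control share 32.5 to 44.3%. In FAIRE-seq the heat and control shares were 23.5% and 23.5% inside protein-coding genes and 30.1% and 31.7% within 500 bp of one. Farther away they were 26.2% for heat and 18.5% for control. Inside snoRNA genes the DNase-seq direction was the opposite. Summit density there was 2.13 times the genome mean for heat and 0.922 times for control. At 201 to 300 bp outside snoRNA genes it was 1.73 times for heat and 0.616 times for control. The tRNA genes outside the arrays and the mitochondrial copy had 2.88 and 1.26 times at that distance, so the heat excess beside the gene was shared. miRNA genes did not share it, with 0.506 and 0.542 times.

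Genes that make and process tRNAs were read by the same window rule. All 14 such genes had a control summit in both assays, so that only losses could be seen. In FAIRE-seq 0 of 14 lost it in any stress, where 0.930% of all protein-coding genes lost one in heat, 6.01% in cold, 1.11% in salt and 0.860% in drought. In DNase-seq 1 of 14 lost it in heat, 1 in cold, 2 in salt and 3 in drought, and no difference from other genes was tested. PRORP1, a protein-only RNase P of the organelles, lost its summit under heat, cold and drought. TBP1, a TATA-binding protein, lost it under salt, and TBP2, another one, under salt and drought. TFIIIA, the 5S rRNA gene factor, lost it under drought. Of all protein-coding genes 7.97% lost a DNase-seq summit in the heat list, 3.91% in cold, 6.37% in salt and 11.9% in drought. The other 10 genes, among them PRORP2, TRZ1, TRZ3 and the tRNA exportin PSD, had a summit in all 10 lists.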

How the data were processed

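The authors deposited 10 peak lists for the 28 chromatin libraries among 33 samples, each list standing for all libraries of a group. The 5 RNA samples were not analysed here. The titles mark libraries with D or F, taken as DNase-seq and FAIRE-seq. The submitters' processing notes name MACS2, Bowtie2, TopHat2, SAMtools and FastQC, with no versions, and TAIR10 as the build. Not given in the sources used here are how libraries were pooled and how reads with several matches were treated. The deposited lists give a fold enrichment over local background (a ratio) per peak. Every deposited −log10 q-value was above 2, and the deposited −log10 p-values were not used. The deposited score column was not used. The deposited summit column gives the offset of the summit from the peak start. Peak values were used only within their own list. Depth is unknown, for want of read totals.

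tRNA genes came from the RefSeq table of TAIR10.1, which has no strand, and were joined to TAIR10 peaks by position on chromosomes 1 to 5. A summit is column 2 plus column 10. An array is a run of at least 10 tRNA genes on chromosome 1 with gaps of at most 5000 bp. Background shares came from all consecutive tiles of 73 or 1073 bp, 1632129 and 111038 in number. A gene or tile with a summit in the stress list and none in the control list of the same assay was called gained, and the reverse lost. The share of 0 of 81 genes was limited by 3 counts, as if the genes were independent. No test was made, since each group has 1 list.

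Genes were named by rank: those present in most lists with the highest mean percentile, the 3 highest gained and lost per stress and assay, those changed in both assays, the ends of arrays, and those present in all lists of 1 assay and none of the other. Not all are printed. The members and lists were chosen with earlier results of these data known, and the on-gene measure, the kept summits, the touched genes and the examples for on-gene summits were chosen after seeing the distance profile. Of 18 genes listed for RNA polymerase III and tRNA maturation, 14 had a fitting annotation in the table. Alternatives were a −log10 q of at least 5, equal list lengths (45737 peaks in DNase-seq, 63060 in FAIRE-seq), windows of 250 and 1000 bp, any base of a peak, loci of overlapping windows (494) in place of genes, no arrays, no mitochondrial copy (3200000 to 3600000 of chromosome 2) and array gaps of 2000 and 10000 bp. The steps were tested on simulated data. Python 3.11.15, pandas 2.3.3, numpy 2.4.6 and matplotlib 3.10.9 were used.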

Additional observations from a re-analysis of the deposited data

Results flagged for a closer look

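Counts of genes with an on-gene summit differed from control in opposite directions in the 2 assays under cold and salt. Cold minus control was -126 genes with an on-gene summit in DNase-seq and 51 in FAIRE-seq, and salt minus control was -123 in DNase-seq and 66 in FAIRE-seq, all of 625 tRNA genes. Each value is a difference between 2 pooled lists, so the difference between the assays was not tested. With equal list lengths DNase-seq had 57 genes for cold and 64 for salt, against 113 for control, and FAIRE-seq 195 and 179, against 144. The FAIRE-seq excess was mostly of short distance: 58 of 84 genes newly on-gene for cold and 56 of 88 for salt had a control summit 1 to 150 bp away, and genes touched by any base of a peak were 319 for cold and 329 for salt, against 307 for control, of 495, with overlapping intervals. Read depth, list length and the handling of reads with several matches differ or may differ between the assays, and their part was not tested.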

How the results depend on the processing

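Each group has 1 pooled list, so replicate error, leaving out a library and a test could not be had. No paired analysis was possible because the replicate numbers in the labels belong to libraries that the lists pool. All 10 window counts stayed within 1.5 times with a −log10 q of at least 5, equal list lengths, any base of a peak, loci, no arrays and no mitochondrial copy, and on-gene counts did so with a −log10 q of at least 5, loci, no arrays and no mitochondrial copy. The cause of the changes below was not tested.

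With equal list lengths, gained and lost genes were 114 and 36 (heat), 65 and 52 (cold), 19 and 96 (salt) and 117 and 15 (drought) in DNase-seq. In FAIRE-seq 21 were gained for salt, and 17 gained and 77 lost for drought. The control on-gene DNase-seq count was 113, and kept DNase-seq summits were 90.2% for drought and 50.0% for salt. Pro array genes were 1 for cold, 7 for salt and 1 for control in DNase-seq, and 1 for salt, 3 for drought and 1 for control in FAIRE-seq. The Tyr-Ser array had 0 for drought in FAIRE-seq.

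With a window of 250 bp, salt DNase-seq had 159 genes, 2 gained, drought 58 gained, and 87 genes were in 10 lists. Pro array genes were 1 for cold and 5 for salt in DNase-seq, and 3 for cold, 6 for salt, 7 for drought and 1 for control in FAIRE-seq, and the Tyr-Ser array had 0 for drought.

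With a window of 1000 bp, salt DNase-seq had 410 genes and 309 were in 10 lists. Gained DNase-seq genes were 23 (heat), 14 (cold), 3 (salt) and 9 (drought), and lost ones 57 for cold and 96 for salt. Lost FAIRE-seq genes were 10 for heat, 18 for salt and 18 for drought. Pro array genes were 4, 7, 19 and 7 in DNase-seq for heat, cold, salt and drought, and in FAIRE-seq 5 for heat, 14 for cold and 6 for control. Tyr-Ser array genes were 2 for heat and 2 for cold in DNase-seq, and 3 for heat, 1 for salt, 3 for drought and 2 for control in FAIRE-seq.

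With any base of a peak, gained DNase-seq genes were 20 for cold, 0 for salt and 18 for drought, and lost FAIRE-seq genes 11 for heat and 21 for drought. Pro array genes were 3 for heat in DNase-seq, and 2 for heat and 5 for control in FAIRE-seq. The Tyr-Ser array had 1 for heat and 1 for cold in DNase-seq, and 1 for heat and 1 for control in FAIRE-seq.

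With loci, 52 were lost for heat and 40 for drought in DNase-seq, 23 gained for drought in FAIRE-seq, and 25 had no summit in any list. Without the arrays, 22 were gained for drought in FAIRE-seq and 30 had no summit. With an array gap of 2000 bp, Pro array genes were 1 for cold, 7 for salt, 2 for drought and 9 for control in DNase-seq, and 2, 5, 6 and 1 in FAIRE-seq. With a −log10 q of at least 5 they were 2 for cold and 1 for control in FAIRE-seq. A summit within 50 bp of the gene was found at 102 genes for heat and 127 for cold in DNase-seq, against 248 for control, and 234 for heat and 222 for control in FAIRE-seq. Of amino acid counts, 12 of 240 moved by over 1.5 times.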
